A study of Mus musculus with 4 samples.

Results

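Ribosomal protein genes encode the proteins that coat the RNA core of the cytoplasmic ribosome, and their transcripts are among the most abundant in any cell. Members were all genes of the deposited feature table whose symbol follows the Rpl or Rps scheme, together with Rpsa, Rplp0, Rplp1 and Rplp2, without rows marked as pseudogenes, which gave 84 of 31055 features, 52 of the large and 32 of the small subunit. The symbols and not the measured values chose them. Of the 84 members, 83 had at least 1 unique molecular identifier (UMI, a tag that marks an original RNA molecule), and Rpl10l had none.

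Total viable cells from microdissected lung tumors of 4 female mice were profiled by droplet-based 3′ single-cell RNA-seq. All 4 carried KrasLSL-G12D, which Cre turns on, and Lkb1XTR/XTR, which Cre turns off and FLP restores. The 2 Restored mice were also Rosa26LSL-tdTomato/FLPo-ERT2, with a reporter and a recombinase that tamoxifen activates, and the 2 Non-Restored mice were Rosa26LSL-tdTomato, without that recombinase. Tumors started with Lenti-Cre grew for 16 weeks, and both cohorts received 4 mg doses of tamoxifen for 2 weeks. The counts were used as 1 pooled matrix in which cells are not assigned to mice. It counts as 1 sample, so the cohorts were not compared, no difference was tested, and the 95% intervals below describe counting error alone.

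After the cell filter 19488 cells with 500 to 27215 UMIs each and a median of 1949.5 remained. Cells were gated into 16 types by UMIs of fixed marker genes. Exactly 1 gate was passed by 14478 cells, no gate by 3836 and several gates by 1174, and only the first were used. The summed level of each gate's markers was highest in its own type, which follows from the gate, and the markers of all other gates together lay between 323 CPM in classical monocytes and 3100 CPM in pDC, where CPM is UMIs per 1000000 UMIs of the type. In cDC1 and cDC2 they exceeded the type's own markers (1590 against 962 CPM and 2267 against 2222 CPM), and in pDC the own markers had 5248 CPM.

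Ribosomal proteins are made in near-equal numbers because each ribosome holds most of them once, and excess copies are degraded. The mRNAs of many start with a run of pyrimidines, the 5′ terminal oligopyrimidine tract, through which growth signals such as mTOR switch their translation on or off. A few members have a paralog, among them Rpl3l, known from striated muscle, Rpl39l, known from the testis, and Rps27l, a p53 target. Naive lymphocytes are known for a high share of ribosomal protein mRNA, and mature neutrophils are short-lived cells with little translation.

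The coding sequences of Rps27l and Rpl39l, which stood apart from the family in some types, are shown here against those of their common partners. A 3′ count can only be assigned where transcripts differ, and the untranslated 3′ ends were not compared. The coding sequences of Rps27 and Rps27l are each 255 bases long and differ at 61 bases, and those of Rpl39 and Rpl39l are each 156 bases long and differ at 23 bases. They are spliced from GENCODE vM21 on GRCm38, where the coding part of Rps27 spans chr3:90212725-90213615 on the minus strand, Rps27l chr9:66946175-66949357 on the plus strand, Rpl39 chrX:37082701-37085127 on the minus strand and Rpl39l chr16:10174310-10174465 on the plus strand. Capitals mark the bases at which the partners differ.
Rps27: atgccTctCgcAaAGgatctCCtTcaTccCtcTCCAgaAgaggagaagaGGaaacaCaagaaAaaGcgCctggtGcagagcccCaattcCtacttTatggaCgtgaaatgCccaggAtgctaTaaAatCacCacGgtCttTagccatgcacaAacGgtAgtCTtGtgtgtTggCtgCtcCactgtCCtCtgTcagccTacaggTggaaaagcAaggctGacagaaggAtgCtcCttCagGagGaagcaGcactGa
Rps27l: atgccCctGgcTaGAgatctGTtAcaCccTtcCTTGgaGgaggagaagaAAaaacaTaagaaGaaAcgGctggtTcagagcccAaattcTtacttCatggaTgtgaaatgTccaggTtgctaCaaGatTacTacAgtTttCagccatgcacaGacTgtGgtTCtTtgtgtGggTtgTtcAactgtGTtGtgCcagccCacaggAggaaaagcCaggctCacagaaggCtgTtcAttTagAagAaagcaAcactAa
Rpl39: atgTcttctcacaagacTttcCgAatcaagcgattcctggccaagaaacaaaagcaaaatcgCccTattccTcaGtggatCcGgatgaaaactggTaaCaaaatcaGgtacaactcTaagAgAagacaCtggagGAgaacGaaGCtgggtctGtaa
Rpl39l: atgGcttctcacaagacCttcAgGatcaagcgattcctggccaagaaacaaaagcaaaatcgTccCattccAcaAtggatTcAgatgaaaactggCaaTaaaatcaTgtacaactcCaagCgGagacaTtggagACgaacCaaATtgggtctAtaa
The coding sequences of Rpl3 and Rpl3l were 73.3% identical and those of Rpl22 and Rpl22l1 67.5% identical over their alignment.

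A RefSeq promoter entry (GRCm38.p6) matched 64 of the 84 members. An unbroken run of at least 8 bases that are C or T on the gene's own strand lay within 15 bases of the start site in 27 of these 64 members (42.2%) and in 3760 of all 27025 genes with an entry (13.9%). Of the 9 members with an entry that left the family by 2-fold, 5 held such a run. The windows of 30 bases centred on the start are shown for genes whose level is described below, from the longest run to the shortest, with the longest run in capitals. They lie at chr2:26910792-26910821 (Rpl7a, plus strand), chr1:39367836-39367865 (Rpl31, plus strand), chr3:28805493-28805522 (Rpl22l1, plus strand), chr3:90213634-90213663 (Rps27, minus strand), chr7:3704026-3704055 (Rps9, plus strand), chr9:66946071-66946100 (Rps27l, plus strand), chr16:10170213-10170242 (Rpl39l, plus strand), chr17:24727811-24727840 (Rpl3l, plus strand) and chr17:46782642-46782671 (Rpl7l1, minus strand).
Rpl7a: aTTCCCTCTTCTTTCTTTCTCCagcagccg
Rpl31: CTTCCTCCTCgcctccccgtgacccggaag
Rpl22l1: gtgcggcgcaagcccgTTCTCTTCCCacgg
Rps27: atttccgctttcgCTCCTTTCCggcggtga
Rps9: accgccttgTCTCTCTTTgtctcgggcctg
Rps27l: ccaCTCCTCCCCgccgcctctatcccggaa
Rpl39l: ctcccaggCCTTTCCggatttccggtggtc
Rpl3l: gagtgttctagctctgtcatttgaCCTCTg
Rpl7l1: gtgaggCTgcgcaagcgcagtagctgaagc
The run was 21 bases long in Rpl7a and 2 bases long in Rpl7l1, and Rpl39l and Rpl3l held 7 and 5 bases. A match describes the letters and is no evidence of a regulated site.

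T and B cells devoted the largest share of their transcripts to ribosomal proteins and neutrophils the smallest. The family took 24.9% of the UMIs of all kept cells. In T cells it took 38.4% (38.4 to 38.5%, exact 95% interval, 3442 cells), in B cells 35.5% (1773 cells) and in neutrophils 7.29% (7.25 to 7.33%, 1574 cells), a 5.27-fold range over the 16 types. Without neutrophils the range was 2.12-fold. The median neutrophil stood at 4.85% and the upper quartile at 6.86%, below the pooled share, and the pooled share was 9.13% with at least 500 genes per cell (558 cells) and 9.15% with 1 more marker per gate.

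Below the lymphocytes came the antigen-presenting cells. cDC1 stood at 28.9% (61 cells), pDC at 28.1% (59 cells), classical monocytes at 27.4% (297 cells) and cDC2 at 26.7% (190 cells). NK cells, at 25.6% (379 cells), lay well below the other lymphocytes and next to mature DC at 25.1% (121 cells).

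The lower end held the structural cells and macrophages. Basophils stood at 21.7%, endothelial cells at 21.5% and interstitial or tumor macrophages at 21.4%, and the intervals of basophils and endothelial cells lie just apart (21.6 to 21.9% against 21.4 to 21.5%). Non-classical monocytes followed at 19.4%, stromal cells at 18.5%, epithelial cells at 18.2% and alveolar macrophages at 18.1%, and the intervals of the last 2 overlap (18.1 to 18.2% and 18.1 to 18.1%). Cells of a type varied far more than these neighbours differed: the middle 50% of T cells ranged from 32.2 to 45.9%, of endothelial cells from 15.8 to 25.4% and of epithelial cells from 14.7 to 21.7%.

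**Figure D1:**
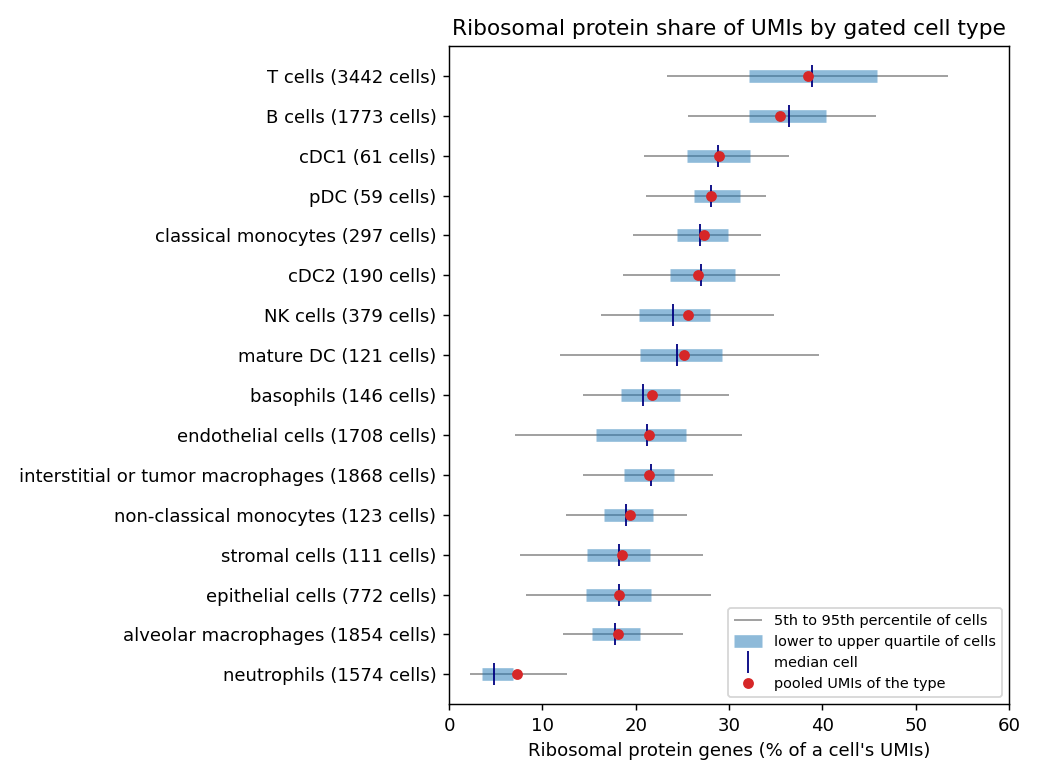
Share of each cell's UMIs from ribosomal protein genes (%, x axis) in the 16 gated types (y axis, with cell numbers), with thick bars from the lower to the upper quartile of cells, thin lines from the 5th to the 95th percentile, ticks at the median cell and red points at the pooled share. T cells (38.4%) and B cells (35.5%) sit above the other types and neutrophils (7.29%) below them.

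The average of T, NK and B cells was 33.2%, against 18.5% for alveolar macrophages, interstitial or tumor macrophages, classical monocytes and neutrophils, a log2 ratio of 0.84 (0.84 to 0.84). Leaving out neutrophils, an alternative added after the data were seen, gave 0.57.

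Neutrophils were low in nearly every member and not in a few abundant ones. A neutrophil held on average 80.4 ribosomal protein UMIs and 1022 others, and a T cell held 743 and 1190, so the 2 types differed 9.24-fold in the first and 1.16-fold in the second. Of 82 members measured there, 78 were at least 2-fold below the mean of the other 15 types, against 41.9% of 8065 features. Against classical monocytes, the myeloid type with the highest share among the 4 averaged above, 77 of 82 members were at least 2-fold lower, against 25% of 6102 features, and the log2 ratio of the family was -1.91 (-1.92 to -1.90). The gene with the most UMIs in neutrophils outside the family was S100a8, a calcium-binding alarmin, with 8.08% of all UMIs, and the median neutrophil had 0.439% mitochondrial UMIs. The part of these levels in the result was not tested.

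The share differed with the depth of the cell. Neutrophils of 500 to under 1000 UMIs stood at 5.52% (965 cells), those of 1000 to under 2000 UMIs at 5.59% (482 cells) and those of 2000 to under 4000 UMIs at 12.8% (114 cells). In the same bins the summed markers of the other gates were at 225, 337 and 839 CPM, and their part in the result was not tested. Endothelial cells lay between 14.2% in the lowest and 23.5% in the highest of 4 bins, whereas epithelial cells lay between 18.2 and 18.3% over 3 bins.

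**Figure D2:**
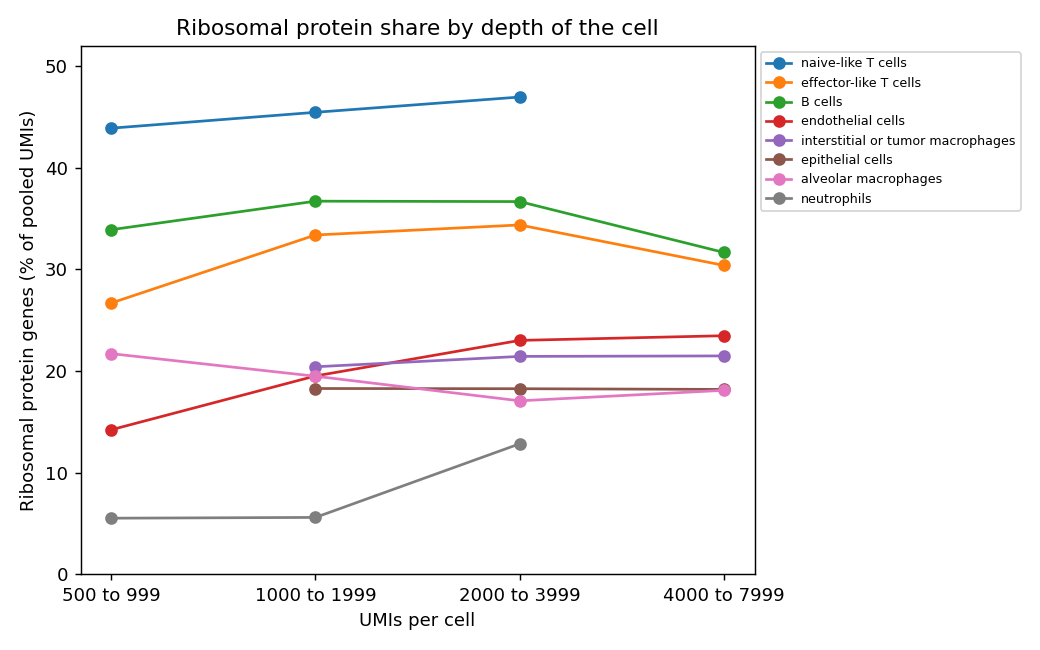
Ribosomal protein share of pooled UMIs (%, y axis) by UMIs per cell (x axis, 4 bins), with a line for each type or T cell gate and bins under 20 cells left out. Neutrophils move from 5.52% to 12.8% and endothelial cells from 14.2% to 23.5%, and naive-like T cells stay above effector-like T cells in each of the 3 bins that both have.

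Within T cells, the naive-like cells carried the highest share of any group. These cells have UMIs of at least 2 genes of a short list that marks naive and central memory cells, such as Ccr7 and Lef1, and the effector-like cells have none of that list and at least 2 effector genes such as Ccl5 and Nkg7. The family took 45.3% in 728 naive-like cells (45.2 to 45.3%), 33.3% in 552 effector-like cells (33.2 to 33.4%) and 30.1% in 211 regulatory cells. The middle 50% of naive-like cells (41.8 to 50.1%) lay above that of effector-like cells (28.2 to 38.5%).

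The log2 ratio of naive-like over effector-like cells was 0.44 (0.44 to 0.45), and 77 of 81 members were higher in naive-like cells, against 29% of 6078 features. The median was 0.43 over the members and -0.35 over all features. It was 0.37 among CD8 cells (213 against 70 cells) and 0.50 among CD4 cells (94 against 76 cells), both added after the data were seen. CD8 cells stood at 44.1% and CD4 cells at 35.4%. Median depths were 1745.5 and 1880.5 UMIs in the naive-like and effector-like cells.

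Members did not move by the same amount. Rpl12, a large subunit protein at the base of the stalk that binds translation factors, had 5264 CPM in naive-like and 2879 CPM in effector-like cells, a log2 ratio of 0.87 (0.81 to 0.93), the largest of the 81. Rps27, a zinc-binding small subunit protein, had 18769 and 11089 CPM (0.76, 0.73 to 0.79). The other end held Rpl41, which encodes the shortest ribosomal protein, at 3945 and 4238 CPM (-0.10), Rpl27 at 1205 and 1436 CPM (-0.25), and the variant Rps27l at 97.7 and 294 CPM (-1.59, -1.89 to -1.30). Rps27l was the only member of the 81 at least 2-fold lower in naive-like cells, against 17.5% of features. These genes were chosen after their values were seen, apart from Rps27 and Rps27l.

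Against regulatory cells the ratio of naive-like cells was larger, at 0.59 (0.58 to 0.60), and 74 of 81 members were higher, against 34.9% of 5443 features. These gates do not exclude each other, so a cell that passed both counts on both sides, and such cells were not counted. At least 2-fold higher were 5 of the 81 members, Rps27, Rps24, Rps29, Rps16 and Rpl12, a share below the 8.08% of all features. Rps27 had 7496 CPM in regulatory cells (log2 ratio 1.32, 1.28 to 1.37). Rps27l ran the other way, with 412 CPM in regulatory cells (-2.07, -2.39 to -1.77). Rps24, Rps16 and Rpl12 were named after their values were seen.

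Proliferating T cells, which express Mki67, Top2a and other division genes, had a lower share than other T cells. It was 30.3% in 109 cells against 39.2% in 3333, a log2 ratio of -0.37 (-0.38 to -0.37), and 16 of 81 members were higher, against 52.9% of 9339 features. Their median depth was 5247 UMIs, against 1655 in the other T cells, and T cells of 4000 to under 8000 UMIs as a whole stood at 32.7% (123 cells). The part of depth in the result was not tested. With the naive-like cells left out of the comparison group, which was added after the data were seen, the ratio was -0.30.

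The members of the Rps27 pair differed in opposite directions in these cells. Of the 109 cells, 36 also passed the effector-like gate, 31 the regulatory gate and 9 the naive-like gate, and the part of these states in the result was not tested. Rps27 was 6033 CPM (5838 to 6234) in proliferating and 15343 CPM in other T cells, a log2 ratio of -1.35 and the lowest of the 81 members. Rps27l was 527 CPM (470 to 588) against 183 CPM, a log2 ratio of 1.53 (1.34 to 1.71) and the highest. Rps2, next in order, reached 0.48.

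Dividing macrophages showed smaller differences of the same direction. In 79 proliferating alveolar macrophages the family took 15.9% against 18.2% in the others, with 19 of 83 members higher, against 56.6% of features. Rps27l was 778 against 414 CPM and Rps27 2281 against 4117 CPM there. In 54 proliferating interstitial or tumor macrophages the family took 19.8% against 21.5%, with 20 of 82 members higher, against 53% of features. Rps27l was 662 against 499.6 CPM and Rps27 3803 against 4780 CPM. Rps27l had the highest log2 ratio of the measured members in both comparisons, whereas the lowest ratios belonged to Rpl10 (-0.89) among alveolar macrophages and, from 5 UMIs, to Rpl3l (-0.63) among interstitial or tumor macrophages.

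**Figure D3:**
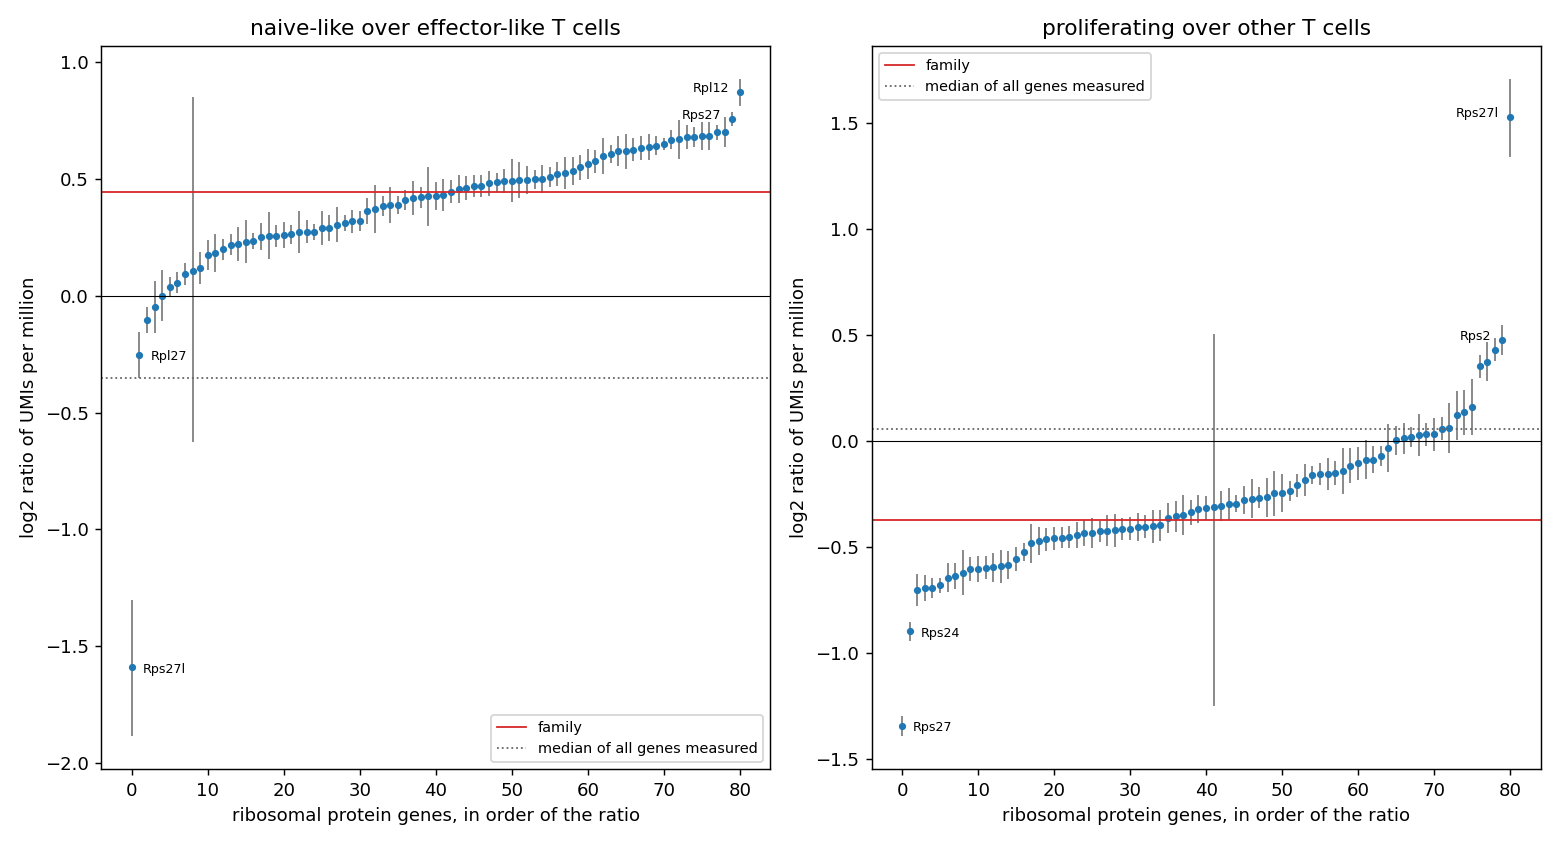
log2 ratio of CPM (y axis) of 81 ribosomal protein genes in order (x axis), for naive-like over effector-like T cells on the left and proliferating over other T cells on the right, with vertical lines for exact 95% counting intervals, a red line for the family and a dotted line for the median of all genes measured. Rps27l is lowest on the left (-1.59) and highest on the right (1.53), and Rps27 is second highest on the left (0.76) and lowest on the right (-1.35).

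In the epithelial cells, which include the neoplastic cells, the share was slightly below that of the endothelium. The log2 ratio of epithelial over endothelial cells was -0.24 (-0.25 to -0.24), and 12 of 81 members were higher, against 36.5% of 10606 features. With mitochondrial genes and every other gene above 1% of UMIs left out of the denominator, the shares were 23.4 and 23.5% and the log2 ratio was -0.0084. Rpl36al, a copy of Rpl36a, went against the family with 1147 CPM in epithelial and 566 CPM in endothelial cells (1.02, 0.94 to 1.10).

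Among epithelial cells, the Hopx-positive cells without the ATII gate had a share of 16.6% (114 cells) and ATII-gated cells, which express genes of surfactant-producing alveolar type II cells, 18.3% (456 cells), a log2 ratio of -0.14 (-0.15 to -0.12). Their median depths were 2310 and 4621.5 UMIs. Malat1 had 92540 CPM in Hopx-positive and 34472 CPM in ATII-gated cells, and its part in the result was not tested. Medians of the share per cell were 17.7 and 18.1%, a log2 ratio of -0.029, so the size of the difference changed with the weight given to each cell. Of 81 members 11 were higher in Hopx-positive cells, against 57.4% of 7714 features, and Rps27l (898 against 482 CPM) and Rpl22l1 (1146 against 711 CPM) had the largest ratios, at 0.90 (0.70 to 1.09) and 0.69 (0.52 to 0.86).

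The composition of the family was otherwise close to constant. For each member, the share of the family's UMIs in a type was set against its unweighted mean share in the other 15 types. Of 1302 values with at least 20 UMIs seen or predicted, 93.7% lay within 1.5-fold. The median size of the log2 deviation was 0.14 for members and 0.90 for the other 13256 genes treated in the same way. The other genes enter from 20 UMIs, whereas most members are abundant and make up the family sum they are set against. The part of abundance and of this shared sum in the gap was not tested. Small subunit genes took between 43.6% of family UMIs in alveolar macrophages and 49.3% in neutrophils, and the rank correlation of member CPM over the 84 genes between any 2 types was at least 0.903, a description of 120 pairs of types from the same pool of libraries.

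The 3 most abundant members were Rps29, Rps27 and Rpl37a, all small zinc-binding proteins. Rps29 ranged from 4659 CPM in neutrophils to 18069 CPM in T cells, Rps27 from 4036 CPM in alveolar macrophages to 16770 CPM in B cells, and Rpl37a from 2286 CPM in neutrophils to 10860 CPM in T cells. Of the 83 members with UMIs, 60 had their highest level in T cells and 78 their lowest in neutrophils. In T cells 80 of 83 members were above the mean of the other 15 types, against 37% of 11738 features.

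The stalk proteins recruit elongation factors to the ribosome. Rplp0, which anchors the stalk, ran from 551 CPM in neutrophils to 3345 CPM in T cells and deviated from the family by at most 0.39 on the log2 scale. Its partners Rplp1 and Rplp2 were relatively high in alveolar macrophages (deviations of 0.59 and 0.50), where they had 3780 and 3117 CPM. Rplp1 was relatively low in classical monocytes (2507 CPM, -0.68), and Rplp2 there deviated by -0.14.

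At least 2-fold off the family in any type were 10 of 83 members, against 90.7% of 13339 features measured in the same way. The limits named for the median deviation, abundance and the shared family sum, hold here as well. The 90.7% can include genes that deviate only because the family's share differs between types, so it is no like-for-like background. With basophils left out, an alternative added after the data were seen, the count was 6. The 10 comprise copies of another member (Rpl3l, Rpl39l, Rps27l, Rpl22l1, Rpl7l1), members that stood out in a myeloid or dendritic type (Rps9, Rpl31) and members low in basophils (Rpl3, Rps2, Rpl7a). The smallest deviation among the 10 was that of Rpl7a (1.10 in size), and the members just short of the limit were Rpsa (0.99 in basophils, lower), Rps23 (0.95, basophils, higher) and Rps20 (0.94, basophils, lower).

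**Figure D4:**
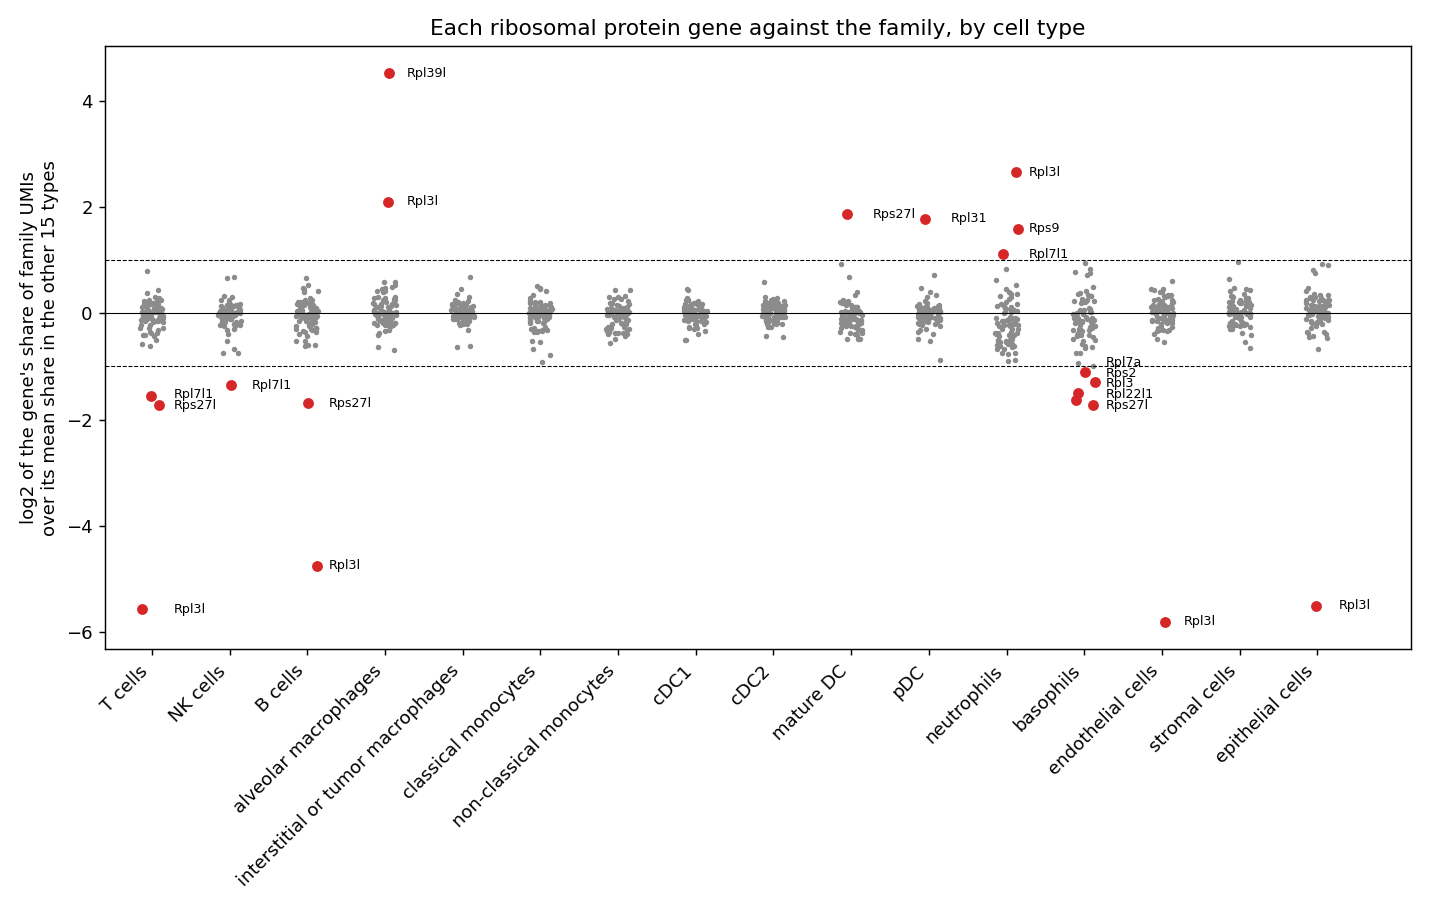
log2 of each member's share of family UMIs over its mean share in the other 15 types (y axis), by cell type (x axis), with a point for each member and red points at least 2-fold off (dashed lines). Most points lie within the dashed lines, and Rpl39l in alveolar macrophages (4.52) and Rpl3l in endothelial cells (-5.81) are the farthest.

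Rpl3l was a transcript of macrophages, neutrophils and some dendritic cells here. It had 45.3 CPM (41.2 to 49.6) in alveolar macrophages, 458 UMIs spread over 378 of 1854 cells, with 1.09% of them in the cell that held most. It had 23.2 CPM in interstitial or tumor macrophages, 27.3 CPM in cDC2, 27.0 CPM in mature DC, 24.3 CPM (8.91 to 52.8) in non-classical monocytes and 24.2 CPM (17.5 to 32.7) in neutrophils. Lymphoid and structural cells were near 0.

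T cells had 4 Rpl3l UMIs in all, B cells 3, and endothelial, stromal and epithelial cells 1 each, while NK cells and basophils had 0. Against the family the endothelial value was a log2 deviation of -5.81 (-11.1 to -3.33). Rpl3 itself, the core protein next to the peptidyl transferase centre, had between 253 and 2120 CPM, and Rpl3l made up 3.97% (3.62 to 4.34%) of the pair in alveolar macrophages, 8.73% (6.37 to 11.6%) in neutrophils and 0.0283% in T cells.

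Rpl39l was a rare transcript, with 253 UMIs in 130 of the 20351 deposited cells, and its level was highest in alveolar macrophages. There it had 14.2 CPM from 144 UMIs in 68 cells, and the log2 deviation was 4.52 (4.27 to 4.75). That interval leaves out the counting error of the other types, whose Rpl39l UMIs were few. With the median of the other types as reference Rpl39l had no value there, as that median was 0. In cells of 1000 to 3000 UMIs it had too few UMIs for a value in any type. In neither case was it counted among the members 2-fold off. T cells had 24 UMIs (3.61 CPM), interstitial or tumor macrophages 17 (2.08 CPM), classical monocytes 4 and cDC2 2 (each in 1 cell) and neutrophils 1, and the other 10 types had 0. A count of 0 allows up to 0.857 CPM in endothelial and 0.896 CPM in epithelial cells. It was 0.292% of the Rpl39 pair in alveolar macrophages. Alveolar macrophages were also the type with the most UMIs in all, and against interstitial or tumor macrophages, where 13 of 83 members were higher and 64.1% of 10789 features were, Rpl39l had the largest log2 ratio (2.78).

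Rps27l was highest in mature DC and low against the family in T cells, B cells and basophils. Its level was 1386 CPM (1290 to 1488) in mature DC, 771 UMIs in 116 of 121 cells, then 572 CPM in epithelial cells, 548 CPM in cDC2, 530 CPM in cDC1 and 506 CPM in interstitial or tumor macrophages. T cells had 213 CPM (202 to 225), B cells 203 CPM (187 to 219), basophils 121 CPM (80.6 to 175) and neutrophils 96.9 CPM (82.8 to 113). The log2 deviations were 1.86 in mature DC, -1.73 in T cells, -1.69 in B cells and -1.73 in basophils. NK cells, with 275 CPM, deviated by -0.76, next to classical monocytes at -0.78 and pDC at -0.87.

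As a share of the Rps27 pair, Rps27l spanned a wide range. It was 0.518% (0.435 to 0.612%) in naive-like, 2.59% in effector-like and 8.03% (7.19 to 8.93%) in proliferating T cells. It reached 15.4% (14.4 to 16.5%) in mature DC and 15.9% (14.2 to 17.8%) in Hopx-positive epithelial cells, against 8.21% in ATII-gated cells. A near-identical copy of Rps27, Rps27rt, is a row of its own and no member, and took 7451 UMIs in all deposited cells, so the split of reads between it and Rps27 is uncertain.

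Rpl22l1, the partner of Rpl22, was expressed at a level near that of Rpl22 in several types. It was 46.6% (43.6 to 49.6%) of the pair in stromal cells, 46.1% in NK cells and 45.9% in Hopx-positive epithelial cells, and 16.4% (12.8 to 20.5%) in basophils. Its log2 deviation was -1.64 (-2.02 to -1.28) in basophils, at 269 CPM, and 0.96 in stromal cells, at 1253 CPM.

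Rpl36al made up 43.7% of its pair in classical monocytes, 43.2% in pDC and 40.7% in epithelial cells. Endothelial cells had the lowest share of the 16 types, at 17.5% (16.8 to 18.2%). Its largest deviation was 0.82 in epithelial cells, below 2-fold.

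Rpl7l1, a nucleolar relative of Rpl7 that acts in ribosome assembly, was a low transcript throughout, with 3 UMIs in all basophils and at most 82.4 CPM, in pDC (13 UMIs). T cells had 26.8 CPM (23.0 to 31.0), a deviation of -1.55 (-1.77 to -1.34), and NK cells 20.4 CPM (-1.36). In neutrophils it had 28.8 CPM (21.4 to 38.0), close to the 29.3 CPM of classical monocytes, and its deviation there, 1.11 (0.68 to 1.51), was upward.

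**Figure D5:**
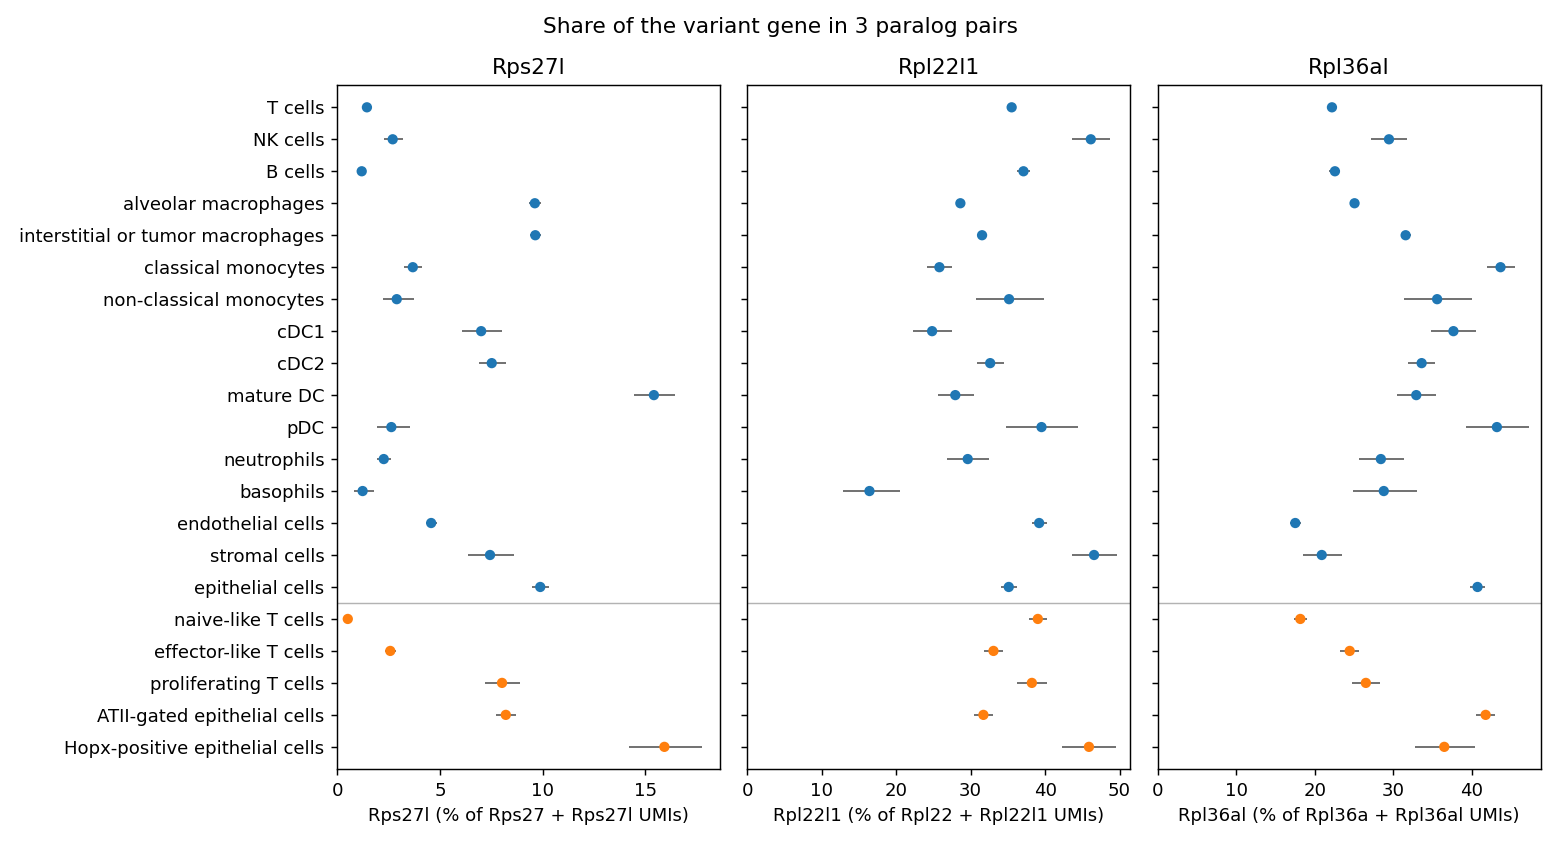
Share of the variant gene in the summed UMIs of its pair (%, x axis) for Rps27l, Rpl22l1 and Rpl36al in the 16 types (blue) and 5 gates within T and epithelial cells (orange), with exact 95% counting intervals as bars. Rps27l runs from 0.518% in naive-like T cells to 15.9% in Hopx-positive epithelial cells, Rpl22l1 is lowest in basophils (16.4%) and Rpl36al in endothelial cells (17.5%).

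Rps9, a small subunit protein that helps to guard decoding accuracy, had a level in neutrophils within the range of the other types. It had 3422 CPM (3335 to 3510) there, seen in 1437 of 1574 cells, against 2279 CPM in stromal cells, 2460 CPM in epithelial cells, 3576 CPM in interstitial or tumor macrophages and 6433 CPM in classical monocytes, the highest level. Its deviation in neutrophils was 1.59 (1.56 to 1.63). In the neutrophils of the 3 depth bins, from low to high, it had 3752, 3223 and 3123 CPM.

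After Rpl3l, Rps9 and Rpl7l1, Rps27 was the next highest against the family in neutrophils, with a deviation of 0.83 at 4172 CPM, while Rpl10a (-0.91) and Rpl29 (-0.88) were the members that lay farthest below the family there. Both were named after their values were seen.

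Rpl31 stood out in pDC. It had 3518 CPM (3232 to 3823), with UMIs in all 59 cells, against 253 to 1226 CPM in the other types, and the deviation was 1.78 (1.65 to 1.90). On GRCm38 it lies at chr1:39367842-39371911 on the plus strand and overlaps Tbc1d8 on the opposite strand. Tbc1d8 was also highest in pDC, at 216 CPM (34 UMIs), next to 124 CPM in mature DC, where Rpl31 had 807 CPM. The part of this overlap in the result was not tested.

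Several members were low against the family in basophils. Rpl3 had 433 CPM (352 to 527), a deviation of -1.50 (-1.80 to -1.22), against 1052 to 2120 CPM in every other type but neutrophils (253 CPM). Rps2, at the mRNA entry tunnel, had 550 CPM (-1.29, -1.55 to -1.04), and Rpl7a, of the large subunit, had 377 CPM (-1.10, -1.42 to -0.80). Basophils were 146 cells with a median of 1489 UMIs, and 5 of the 80 members measured there were 2-fold off, the most of any type. The median size of the deviation was 0.27 in basophils, 0.31 in neutrophils and 0.08 in interstitial or tumor macrophages.

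Other genes of translation resembled the family in part. A list of 20 translation factors and other genes with pyrimidine tracts, among them the elongation factor Eef1a1, summed to 38773 CPM in T cells and 9898 CPM in neutrophils, and its naive-like over effector-like log2 ratio was 0.38 (0.36 to 0.40). The 18 genes of ribosome assembly, such as nucleolin (Ncl), had a ratio of -0.04 (-0.13 to 0.05), and the 78 genes of the mitochondrial ribosome one of -0.47 (-0.53 to -0.42). In neutrophils 17 of 20, 15 of 16 and 62 of 72 measured genes of these lists were at least 2-fold lower than in the other types, again against 41.9% of features. Only 509 genes outside the family were compared with it over the 16 types. The 5 most like it were Gm10076, Eef1b2, Nsa2, Snrpg and Snrpe, with a root mean square log2 distance of 0.17 to 0.24. The median distance was 0.19 over 80 members and 0.68 over the 509 genes.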

How the data were processed

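Viable cells of microdissected tumors were profiled by droplet-based 3′ single-cell RNA-seq. The deposited values are raw UMI counts per gene and cell, which the authors made with Cell Ranger 3.0.2 on mm10, as the submitters' processing notes name them. The table held 20351 cells and 58624795 UMIs. The members, gene lists and gates were chosen with earlier results of these data known.

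Cells with at least 200 genes and not above the 98th percentile of genes (2713.04) or of mitochondrial share (13.4%) were kept. The percentiles of the study's own cut-offs are not given in the sources used here. Gates counted distinct markers with a UMI, and cells that passed several gates, which include doublets, were left out; no doublet caller was run. One marker of the naive-like gate is not reported here. UMIs were summed per type. Shares and CPM carry exact Clopper-Pearson 95% intervals, and ratios exact conditional intervals. Both cover counting error only. A member's deviation was the log2 of its share of family UMIs over its unweighted mean share in the other 15 types, given from 20 UMIs seen or predicted, and a count of 0 allows up to 3 UMIs. The interval of a deviation covers the counting error of the type's own share. It takes the mean of the other 15 types as fixed and leaves out their counting error. Features in a ratio had to reach the same 20 UMIs.

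Members named by rule were the 10 with the largest deviation, the 3 most abundant, the stalk genes and fixed paralog pairs. The 5 genes most like the family were named as well. Other members, such as Rpl12, Rpsa, Rps23 and Rps20, were named after their values were seen. They stood at the end of a ranking, passed the 2-fold limit in a comparison or lay just short of it. Where a gene had several RefSeq promoter entries, the entry with the longest pyrimidine run was used, for members and all genes alike. Coordinates of coding sequences are from GENCODE vM21 on GRCm38, which mm10 names as well. Rows marked -ps (9 rows, 0.0910% of family UMIs) were left out. Python 3.11.15, numpy 2.4.6, scipy 1.17.1 and pandas 2.3.3 were used. Deviations and ratio intervals were tested on simulated counts from a profile shared by all types, with changes set in neutrophils. That test did not cover the gates or a family share that differs between types.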

Additional observations from a re-analysis of the deposited data

How the results depend on the processing

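Neutrophils had the lowest and T cells the highest share under every alternative run for the share by type. The log2 ratio of lymphoid over myeloid types (0.84) was 0.85 without upper cut-offs, 0.80 with at least 500 genes per cell, 0.82 with 1 more marker per gate, 0.86 with at most 1 marker of another gate, 0.97 in cells of 1000 to 3000 UMIs, 0.81 with mitochondrial and abundant genes out of the denominator, 0.90 for the median cell and 0.57 without neutrophils. In the same order from 500 genes on, naive-like over effector-like T cells (0.44) gave 0.43, 0.40, 0.45, 0.45, 0.45 and 0.47, with 0.37 among CD8 and 0.50 among CD4 cells. Epithelial over endothelial cells (-0.24) gave -0.23 at the 95th percentile, then -0.25 with 1 more marker, -0.23 with at most 1 other marker, -0.17 in cells of 1000 to 3000 UMIs, -0.0084 with the smaller denominator and -0.22 for the median cell. Hopx-positive over ATII-gated cells (-0.14) gave -0.23 without cut-offs and -0.067 at the 95th percentile, then -0.16, -0.17, -0.10, -0.27 and -0.029 in that order. Proliferating over other T cells (-0.37) gave -0.40 at the 95th percentile, -0.36 with 500 genes, -0.30 with 1 more marker, -0.38 with at most 1 other marker, -0.41 with the smaller denominator and -0.30 without naive-like cells; cells of 1000 to 3000 UMIs were too few for a value. The cause of these shifts was not tested.

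The count of 10 members off the family was 6 without basophils and 9 to 14 otherwise; the 14, in cells of 1000 to 3000 UMIs, shared 9 with the 10. No direction turned. The alternatives without neutrophils, basophils or naive-like cells and within CD8 or CD4 cells were added after the data were seen. No paired analysis was possible because the pooled matrix does not assign cells to mice. For the same reason the spread between mice is unknown.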
